A study of Mus musculus with 6 samples.

Results

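The genes described here are 8 core genes of the Hedgehog signalling pathway, the ligands Shh and Ihh, the receptor Ptch1, the ligand-binding decoy Hhip, the signal transducer Smo and the transcription factors Gli1, Gli2 and Gli3. They were taken by symbol as 8 of the 35275 genes in a table of raw read counts from mouse kidney. Earlier results of these data were known when they were chosen. The kidneys came from wild-type C57Bl/6 mice whose kidney had been deprived of blood and then reperfused (ischaemia-reperfusion injury), and were collected on day 28. In the severe group ischaemia had lasted 35 min (3 libraries, numbered 13, 14 and 15), and in the mild group it had lasted 20 min (3 libraries, numbered 7, 8 and 9). All 6 libraries therefore come from injured kidneys of the same genotype, no uninjured kidney was analysed here, and the labels used here state no age, sex or number of mice. Separate animals are not stated either, so p-values reflect the spread among these 6 samples alone, which may be technical.

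Hedgehog ligands are secreted proteins that bind the receptor Patched at the cell surface. Without ligand, Patched keeps Smoothened, the product of Smo, inactive. When ligand binds, Smoothened moves into the primary cilium and releases Gli transcription factors from their inhibitor Sufu and from processing into repressors. Gli1 and Ptch1 are themselves transcribed in response to the signal and serve as readouts of it. In the mouse kidney Ihh and Shh are made by epithelial cells, and Gli1 marks perivascular mesenchymal cells that can become myofibroblasts after injury.

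In brief, no gene of the 8 passed the test across all genes. Gli1 was the member whose 3 severe libraries all stood above the 3 mild ones. Ptch1 stood slightly lower in every severe library with the main scaling, but not when scaled by library totals. Smo was within the spread between replicates, and Shh, Ihh, Gli2 and Gli3 had overlapping groups. Counts of Gli1 were also set beside those of the mesenchymal receptor genes Pdgfrb and Pdgfra, both higher in each severe library. Relative to Pdgfrb, Gli1 overlapped between severe and mild kidneys. Relative to Pdgfra, Gli1 was lower in each severe library by a narrow margin. Both denominators were chosen with their higher levels known, and the part of mesenchymal cells in the Gli1 values was not tested.

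Total gene counts per library ran from 15240491 to 17730967, and 14883 genes had enough counts for a test. Severe replicates differed from each other by 14.2 to 70.04 times the sampling noise (chi-square per degree of freedom). Mild replicates differed by 3.67 to 5.34 times. No library was thus a mere resampling of another, but separate libraries made from the same RNA could also differ beyond sampling noise. Severe library 14 stood apart: the summed level of 20 fibroblast and pericyte markers was 3640 CPM there (CPM, the usual unit of counts relative to library size, here after TMM normalization), against 1223 and 2001 CPM in severe libraries 13 and 15 and 631 to 769 CPM in mild libraries. Markers of kidney were present. Umod, a protein of the loop of Henle, stood at 4068 ± 974 CPM in severe and 5205 ± 135 CPM in mild kidneys (mean ± SD, n = 3 each), and of the listed markers of 10 cell types none was at 0 in every library.

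The genes lie on separate loci in mm10. Shh (ENSMUSG00000002633) is at 28456815 to 28467101 of chromosome 5, minus strand and Ihh (ENSMUSG00000006538) at 74945315 to 74951672 of chromosome 1, minus strand. Ptch1 (ENSMUSG00000021466) is at 63511533 to 63565520 of chromosome 13, minus strand, Hhip (ENSMUSG00000064325) at 79966115 to 80058006 of chromosome 8, minus strand and Smo (ENSMUSG00000001761) at 29735694 to 29761365 of chromosome 6, plus strand. Gli1 (ENSMUSG00000025407) is at 127329889 to 127341589 of chromosome 10, minus strand, Gli2 (ENSMUSG00000048402) at 118834132 to 119053619 of chromosome 1, minus strand and Gli3 (ENSMUSG00000021318) at 15463235 to 15730026 of chromosome 13, plus strand. In the deposited annotation Shh shares 728 bases with the antisense gene Gm26894 and Gli1 shares 55 bases with the antisense gene Arhgap9. Without a stated strand setting, reads in those stretches cannot be assigned to one gene. Gm26894 had 20 counts and Arhgap9 had 636 counts over all libraries, and how many counts of Shh or Gli1 this touches was not tested. The overlaps given here are of whole gene spans, introns included, so they may not lie in counted exons. The antisense gene 9530036O11Rik, with 2 counts in all, overlaps 8828 bases of Shh. Smo shares 365 bases with Gm13717 on the same strand, which had 37 counts in all and which no strand setting would separate.

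Paralogs in these families could also share reads, so the longest identical stretch between their coding sequences was read from GENCODE M21 transcripts. It is shown for the pairs with the longest stretch in the ligands and the Gli factors, with every letter identical in the pair:
Gli2 and Gli3: aagaaggagttcgtgtgccgctggc
Gli1 and Gli2: gagaagccacacaagtgcacgtt
Shh and Ihh: atgaaccagtggcctgg
These runs are 25, 23 and 17 bases long. Shh and Dhh also share a run of 17 bases, which is not shown. The read length is not stated in the labels, and a read longer than 25 bases cannot match both members of any of these pairs exactly in coding sequence.

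Gli factors bind the motif GACCACCCA, whose reverse complement is TGGGTGGTC. RefSeq promoter windows of GRCm38.p6, from 250 bases before to 50 bases after a start site, were matched for 6 of the 8 genes (not Shh and Gli1). The full motif of 9 letters was in 0 of these 6 windows and in 0.253% of all 32851 windows, on either strand. Its inner 7 letters ACCACCC, which overlap the full motif, were in the Gli2 window, as in 4.61% of all windows. The Gli2 window (chr1:119053570-119053869, minus strand) and the window of Ptch1 (chr13:63565686-63565985, minus strand), the receptor gene that serves as a pathway readout, are shown with that core in capitals where it is present:
Gli2: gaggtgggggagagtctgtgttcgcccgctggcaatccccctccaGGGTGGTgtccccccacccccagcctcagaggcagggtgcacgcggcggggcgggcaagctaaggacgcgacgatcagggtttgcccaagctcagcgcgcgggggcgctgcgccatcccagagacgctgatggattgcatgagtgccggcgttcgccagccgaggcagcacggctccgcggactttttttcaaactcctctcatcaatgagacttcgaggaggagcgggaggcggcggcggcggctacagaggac
Ptch1: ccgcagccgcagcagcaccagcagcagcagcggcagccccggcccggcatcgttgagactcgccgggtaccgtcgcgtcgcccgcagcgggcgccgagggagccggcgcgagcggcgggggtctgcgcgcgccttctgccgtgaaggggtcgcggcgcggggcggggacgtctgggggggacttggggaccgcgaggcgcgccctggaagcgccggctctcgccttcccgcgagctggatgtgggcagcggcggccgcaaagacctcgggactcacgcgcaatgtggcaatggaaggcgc
A match is a description of the letters and not a binding site, and no match says only that the letters are not in that window.

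Levels per length differed widely between the 8 genes. Smo was highest, with 20.2 to 23.4 CPM per kilobase of gene length over the 6 libraries. Ihh followed with 4.78 to 10.5 and Ptch1 with 3.67 to 4.39 CPM per kilobase, and these 3 ranges did not overlap. Gli1 (0.261 to 1.26), Shh (0.146 to 0.667), Gli3 (0.0756 to 0.537) and Gli2 (0.0926 to 0.203 CPM per kilobase) came next, and each of these ranges overlapped its neighbour in the order. Hhip was lowest with 0.0123 to 0.0403 CPM per kilobase. The more abundant ligand was thus Ihh in every library, and the 3 transcription factors stood far below the transducer that acts on them.

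**Figure D1:**
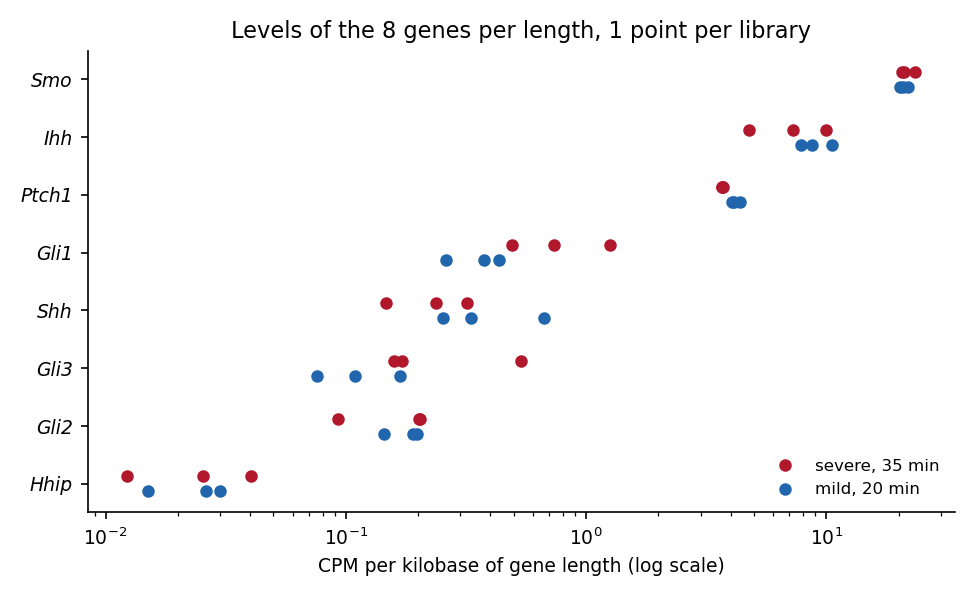
Levels of the 8 genes in CPM per kilobase of gene length (log axis), 1 point per library, severe libraries above mild libraries for each gene. Smo, Ihh and Ptch1 form 3 separate ranges, from 20.2 to 23.4 for Smo down to 3.67 to 4.39 for Ptch1, and Hhip lies lowest at 0.0123 to 0.0403.

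Among the ligands, Ihh had 11.8, 24.5 and 17.9 CPM in severe libraries 13, 14 and 15, against 19.4, 21.6 and 25.9 CPM in mild libraries 7, 8 and 9. The groups overlapped, with severe library 13 lowest of all and severe library 14 above mild libraries 7 and 8. The log2 fold change of severe over mild was -0.30 ± 0.24 (± is the SE; adjusted p = 0.446, from edgeR's quasi-likelihood test with adjustment over all genes). Without severe library 14 it was -0.59 (adjusted p = 0.124), and without severe library 13 it was -0.06 (adjusted p = 0.813). Its size thus depended on severe libraries 13 and 14, which moved it in opposite directions. Over its 15 alternatives the adjusted p lay between 0.0709 and 0.820. Relative to Lrp2, which encodes the proximal tubule receptor megalin, Ihh had 8.13, 28.1 and 14.05 counts per 1000 Lrp2 counts in severe libraries, against 11.45, 11.9 and 15.0 in mild libraries, and severe libraries lay on both sides of the mild ones.

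Shh was read at few counts, with 11, 7 and 14 in severe libraries 13, 14 and 15 and 13, 30 and 10 in mild libraries 7, 8 and 9. These are 0.640, 0.394 and 0.861 CPM in severe kidneys, against 0.896, 1.80 and 0.686 CPM in mild kidneys. The groups overlapped, and mild library 8 was the high one. Shh stood at -0.86 ± 0.47 on the log2 scale (edgeR, adjusted p = 0.285), and at -0.32 without mild library 8. Over 3 libraries the summed counts were 32 in severe kidneys, with an exact Poisson 95% interval of 21.9 to 45.2, and 53 in mild kidneys (39.7 to 69.3). Those intervals cover counting error only and leave out the spread between replicates, in which mild library 8 held 30 of the 53 mild counts. The third ligand, Dhh, chosen as part of a list of other pathway genes, had 44 counts over severe and 29 over mild libraries and a log2 fold change of 0.44 ± 0.32.

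**Figure D2:**
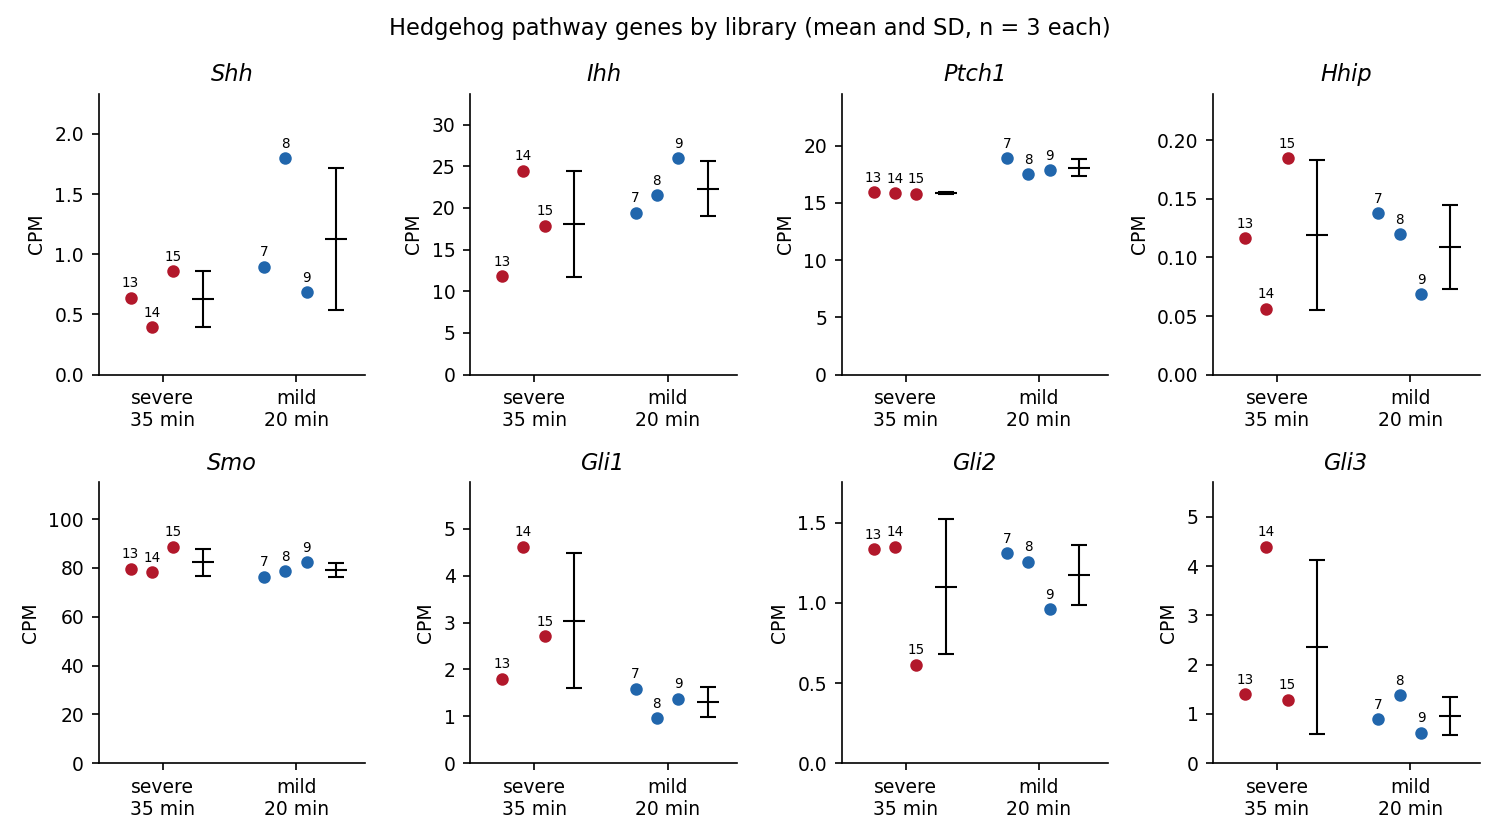
CPM of each of the 8 genes in the 3 severe and 3 mild libraries (points, with the library number above each), with the mean and SD of each group as a bar beside them; each axis starts at 0. Gli1 is at 1.80 to 4.61 CPM in severe libraries and at 0.958 to 1.59 CPM in mild libraries, and Ptch1 at 15.8 to 15.9 CPM in severe and 17.5 to 18.9 CPM in mild libraries, while the groups overlap for the other genes.

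Of the receptors, Ptch1 had 15.9, 15.9 and 15.8 CPM in severe libraries 13, 14 and 15, against 18.9, 17.5 and 17.8 CPM in mild libraries 7, 8 and 9. Every severe library lay below every mild library, by a small margin. The Ptch1 value of severe over mild was -0.19 ± 0.09 on the log2 scale (edgeR, adjusted p = 0.238) and lay between -0.20 and -0.15 with each library left out in turn. The SD of the severe libraries, 0.0669 CPM, was smaller than the 0.945 to 0.986 CPM that counting error alone gives each of them, so their closeness is not a measure of precision. With library totals as the scaling, which moves the median over all tested genes to a log2 fold change of 0.17, Ptch1 stood at -0.02. Severe library 14 then lay above the mild libraries, so the groups overlapped.

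Hhip, which binds and sequesters the ligands, had 2, 1 and 3 counts in severe libraries 13, 14 and 15 and 2, 2 and 1 counts in mild libraries 7, 8 and 9. All are at or below 3 counts, the number that a count of 0 allows, which is 0.169 to 0.207 CPM in these libraries. Hhip was therefore not tested and no fold change is given.

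Smo, the transducer, was among the 8 genes the one with the most counts. It had 79.7, 78.3 and 88.6 CPM in severe libraries 13, 14 and 15, against 76.4, 78.6 and 82.4 CPM in mild libraries 7, 8 and 9. The groups overlapped, with severe library 15 high. Its log2 fold change was 0.06 ± 0.08 (edgeR, adjusted p = 0.675) and was -0.0020 without severe library 15.

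Of the transcription factors, Gli1, an activator and the usual readout of the pathway, had 31, 82 and 44 counts in severe libraries 13, 14 and 15 and 23, 16 and 20 counts in mild libraries 7, 8 and 9. These are 1.80, 4.61 and 2.71 CPM in severe kidneys, against 1.59, 0.958 and 1.37 CPM in mild kidneys. Every severe library was above every mild library, but severe library 13 (exact Poisson 95% interval 1.22 to 2.56 CPM) and mild library 7 (1.005 to 2.38 CPM) were not apart beyond counting error. The log2 fold change was 1.23 ± 0.39 and did not pass over all genes (edgeR, adjusted p = 0.137; unadjusted p = 0.0144). It was 0.79 without severe library 14 (adjusted p = 0.198), and it passed without severe library 13, at 1.51 (adjusted p = 0.0195), and with quality weights in limma-voom, at 1.07 (adjusted p = 0.0107). In those settings 21.5% and 33.9% of all tested genes passed too. Over all 15 alternative settings its adjusted p lay between 0.0107 and 0.364, with the value above 0 in each.

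Gli3, the factor that acts mainly as a repressor in mouse development, had 1.40, 4.39 and 1.29 CPM in severe libraries 13, 14 and 15, against 0.896, 1.38 and 0.618 CPM in mild libraries 7, 8 and 9. Severe library 14 was high, and severe libraries 13 and 15 lay close to mild library 8, so the groups overlapped. The log2 fold change of 1.28 ± 0.56 (edgeR, adjusted p = 0.214) was 0.46 without severe library 14 (adjusted p = 0.546; 0.0735 to 0.546 over 15 alternatives). The size of the Gli3 value thus rested on severe library 14.

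Gli2, the main activator in mouse development, had 1.34, 1.35 and 0.615 CPM in severe libraries 13, 14 and 15, against 1.31, 1.26 and 0.961 CPM in mild libraries 7, 8 and 9. The groups overlapped, with severe library 15 lowest. Its log2 fold change was -0.09 ± 0.36 (edgeR, adjusted p = 0.890), was 0.19 without severe library 15 and was 0.08 with library totals as the scaling. With quality weights in limma-voom it was -0.77 (adjusted p = 0.0647), and over its 15 alternatives the adjusted p lay between 0.0647 and 0.996. The direction of Gli2 thus depended on the setting.

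**Figure D3:**
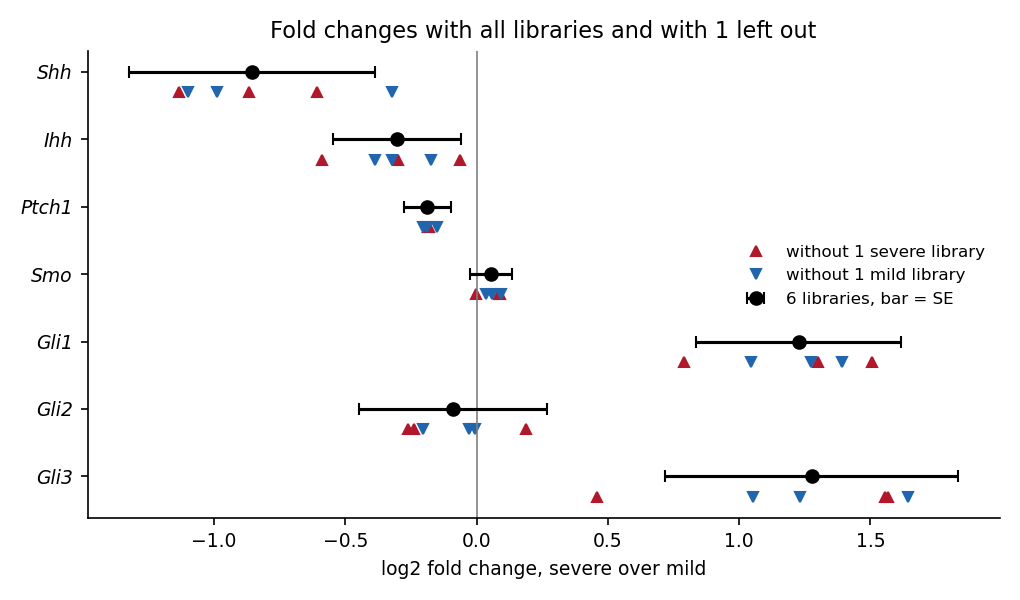
Log2 fold change of severe over mild for the 7 tested genes with all 6 libraries (black points, bars are SE) and with 1 severe library (red triangles) or 1 mild library (blue triangles) left out. Gli1 stays between 0.79 and 1.51, Gli3 drops to 0.46 when severe library 14 is left out, and Smo and Gli2 lie around 0.

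Of the 8 genes 7 passed the filter on low counts. Of these 7, 0 had an adjusted p under 0.05, where 0.0134% of all tested genes did (2 of 14883; 0.00672% higher and 0.00672% lower). With unadjusted p under 0.05 there was 1 member, Gli1, where 23.7% of all tested genes had such a value in either direction (15.8% higher, 7.89% lower), and with DESeq2 the counts were 0 at an adjusted p under 0.05, where 7.87% of all tested genes passed, and 2 at an unadjusted one, where 23.6% did. Gli1 was the 1 member above every mild library in every severe library, where 17.9% of all tested genes were, and Ptch1 the 1 member below, where 16.1% were; either held for 34.0% of all tested genes. The median log2 fold change of the 7 was -0.09, beside 0.0002 over all tested genes. These counts of the 8 genes are near or below what the shares over all genes give.

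Mesenchymal markers moved with Gli1. Of 20 fibroblast and pericyte markers, 18 stood above all mild libraries in each severe library, where 17.9% of all tested genes did. The 20 had a summed level of 1223 to 3640 CPM in severe and 631 to 769 CPM in mild kidneys, with no marker at 0. Their median log2 fold change was 1.45, and 0 of the 20 passed over all genes. Pdgfrb, a receptor of pericytes and fibroblasts, had 82.1, 148 and 117 CPM in severe libraries 13, 14 and 15, against 56.0, 50.3 and 32.9 CPM in mild libraries 7, 8 and 9. Macrophage markers moved the same way, 11 of 12 standing above all mild libraries in each severe library and 0 passing, with a summed level of 678 to 1327 CPM in severe and 357 to 431 CPM in mild kidneys. Injured tubule markers had a median log2 fold change of 1.36, with 0 passing. Of these 12, 5 stood above all mild libraries in each severe library, beside 17.9% of all tested genes. Their summed level was 3136 to 10667 CPM in severe and 2320 to 3048 CPM in mild kidneys. In RNA of whole kidney, more cells of a type and more RNA per cell cannot be told apart.

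Gli1 had 21.97, 31.1 and 23.2 counts per 1000 Pdgfrb counts in severe libraries 13, 14 and 15, against 28.3, 19.0 and 41.8 in mild libraries 7, 8 and 9. The severe libraries lay within the mild range (exact permutation test, two-sided, p = 0.7, and 0.8 adjusted over the 9 ratios computed). With 3 against 3 libraries this test cannot give a p under 0.1. A larger p therefore does not show that a difference is absent. Gli3 overlapped too, with 17.0, 29.6 and 11.1 in severe libraries, against 16.01, 27.4 and 18.8 in mild libraries (exact p = 0.8). Gli2 had 16.3, 9.11 and 5.27 in severe libraries, against 23.4, 25 and 29.2 in mild libraries. Each severe library was thus below each mild library (exact p = 0.1, the smallest possible with 3 against 3 libraries, and 0.18 adjusted). That order follows from the levels of Gli2 and of Pdgfrb, which was higher in each severe library, so no test is read from it. Ptch1 also lay lower in each severe library, with 146 ± 44.4 in severe and 409 ± 116 in mild kidneys. This follows from its own level and that of Pdgfrb. Smo lay lower too, with 753 ± 222 in severe and 1811 ± 610 in mild kidneys. Against Pdgfra, another mesenchymal receptor gene, Gli1 had 35.1, 30.5 and 34.6 counts per 1000 in severe libraries and 55.7, 35.2 and 63.1 in mild libraries. Each severe library was thus below each mild library (exact p = 0.1, and 0.18 adjusted), although severe library 13 and mild library 8 were nearly equal. The log2 fold change of Pdgfra, 1.86 ± 0.36, was itself above the 1.23 of Gli1, so no test is read from this order. Counted against Ptch1, Gli1 had 113, 291 and 171 counts per 1000 Ptch1 counts in severe libraries 13, 14 and 15, against 83.9, 54.8 and 76.9 in mild libraries 7, 8 and 9. That these do not overlap follows from the levels of Gli1 and Ptch1 given above, so no test is read from it. The denominators were chosen with the higher mesenchymal markers of these libraries already known. The part of mesenchymal cells, macrophages or injured tubules in the Gli1 values was not tested.

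**Figure D4:**
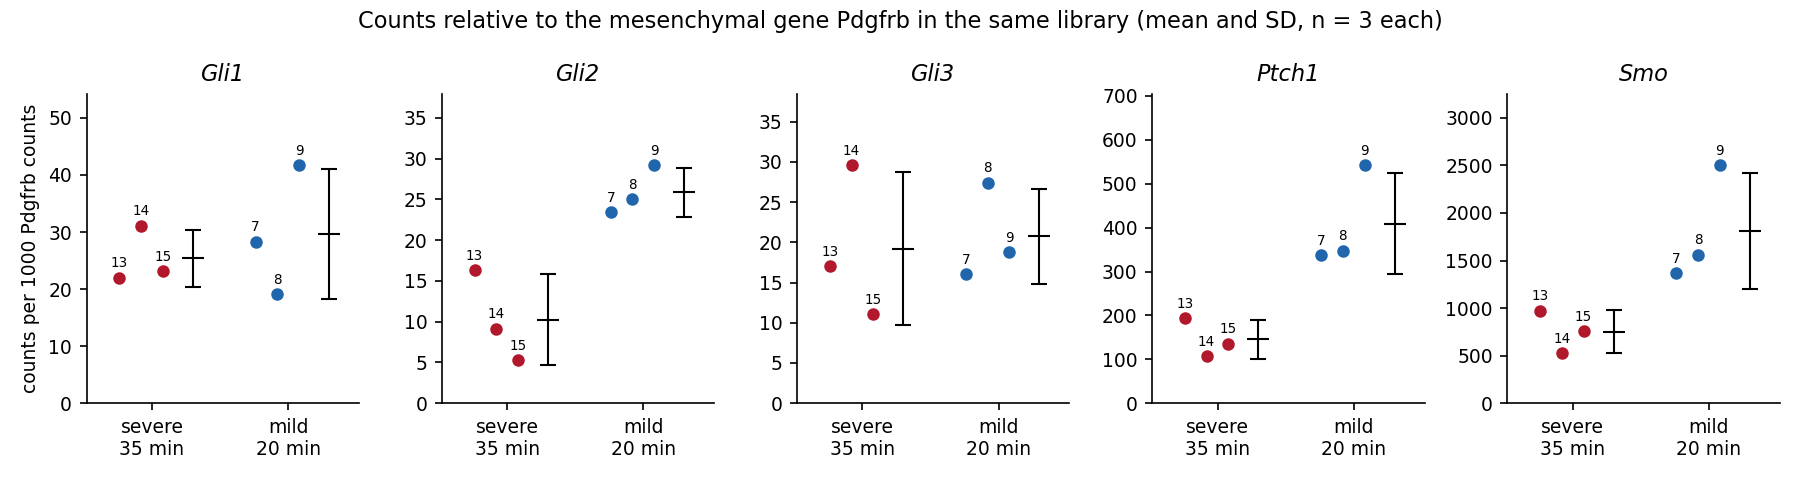
Counts of 5 genes per 1000 counts of Pdgfrb in the same library (points, with library numbers), with the mean and SD of each group (n = 3 each); each axis starts at 0. Gli1 and Gli3 overlap between severe and mild libraries, while Gli2 (5.27 to 16.3 in severe, 23.4 to 29.2 in mild), Ptch1 and Smo do not.

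Further pathway genes were taken from 5 lists, 72 genes in all besides the 8, of which 67 were tested. Of the 67, 0 passed over all genes (lowest adjusted p = 0.0867), 17 stood above every mild library in every severe library (25.4%, beside 17.9% of all tested genes) and 11 below (16.4%, beside 16.1%). Their median log2 fold change was 0.12. For each list below, the same 17.9% above and 16.1% below of all tested genes are the shares to set beside its counts.

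Among genes that process, release or take up ligand, 4 of 7 tested were higher and 1 was lower in every severe library, with 0 passing and a median log2 fold change of 0.27. Scube1, whose family members help release Hedgehog ligands from the cell, had 8.49, 43.8 and 21.1 CPM in severe libraries 13, 14 and 15, against 6.48, 6.35 and 5.97 CPM in mild libraries 7, 8 and 9. Severe library 14 was far above the others, and the log2 fold change of 1.96 ± 0.52 (edgeR, adjusted p = 0.107) was 1.23 without it. Hhat, which attaches palmitate to the ligands, had a log2 fold change of 0.37 ± 0.20. Its severe library 13 (3.315 CPM) and mild library 7 (3.308 CPM) were nearly equal. Dhh, also among the 4 higher genes, had 12 counts in both severe library 15 and mild library 8. The protease gene Adam17 stood at 0.17 ± 0.09 with overlapping groups. Lrp2, whose product also binds Shh, was lower in every severe library, at -0.54 ± 0.21, and of the 12 proximal tubule markers, which include Lrp2, 9 were lower in every severe library and 0 passed, with a summed level of 8639 to 16196 CPM in severe and 18076 to 19842 CPM in mild kidneys.

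Of 8 further genes listed as receptors and co-receptors 4 were higher in every severe library, 0 were lower and 0 passed, with a median log2 fold change of 0.44. The list holds Lrp1 and proteoglycan genes beside the dedicated Hedgehog co-receptors, so its median is no measure of signal reception. Lrp1 stood at 1.31 ± 0.23, the heparan sulfate proteoglycan genes Gpc3 at 1.05 ± 0.29, Sdc1 at 0.82 ± 0.18 and Gpc1 at 0.48 ± 0.15, with adjusted p between 0.0867 and 0.132 (edgeR). Gpc3 was 0.67 without severe library 14. The dedicated Hedgehog co-receptor genes Cdon, Boc and Gas1, which present ligand to Patched, had overlapping groups, with log2 fold changes of 0.26 ± 0.18, 0.34 ± 0.25 and 0.04 ± 0.11.

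Of 21 intracellular transducers 4 were higher and 4 lower in every severe library, 0 passed, and the median log2 fold change was 0.02. Sufu, the inhibitor that holds Gli proteins in the cytoplasm, had 77.9, 54.3 and 80.4 CPM in severe libraries 13, 14 and 15, against 86.5, 87.2 and 82.5 CPM in mild libraries 7, 8 and 9. Its log2 fold change was -0.27 ± 0.14, and -0.11 without severe library 14. Gpr161, a ciliary receptor that restrains the pathway, stood at 1.03 ± 0.36 (0.69 without severe library 14), the beta-arrestin gene Arrb2 at 0.58 ± 0.17, the ciliary kinesin gene Kif7 at 0.99 ± 0.43 with overlapping groups, and Evc, whose product binds Smoothened at the base of the cilium, at -0.39 ± 0.14.

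Of 12 genes of the cilium, where Smoothened signals, 0 were higher and 4 were lower in every severe library, 0 passed, and the median was -0.0023. Tulp3, which carries receptors into the cilium, had 58.6, 54.4 and 64.4 CPM in severe libraries 13, 14 and 15, against 74.6, 69.1 and 75.7 CPM in mild libraries 7, 8 and 9. Its log2 fold change was -0.31 ± 0.09 (edgeR, adjusted p = 0.112). Ift122 stood at -0.40 ± 0.16 and Inpp5e at -0.20 ± 0.08, while Tmem67 stood at 0.33 ± 0.16 with overlapping groups. With library totals as the scaling Tulp3 was -0.14, Ift122 -0.25, Inpp5e -0.03 and Tmem67 0.50.

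Of 20 tested genes reported as Hedgehog targets in other tissues 6 were higher and 2 lower in every severe library, with 0 passing and a median log2 fold change of 0.28. They included Snai1, a transcription factor of epithelial-mesenchymal transition, at 1.28 ± 0.27, the growth factor binding protein gene Igfbp6 at 1.58 ± 0.38, the chemokine gene Cxcl12 at 0.60 ± 0.14 and the osteopontin gene Spp1 at 1.41 ± 0.43 (edgeR, adjusted p between 0.0867 and 0.126). Spp1 was 0.84 without severe library 14. The cell cycle gene Ccnd1 was lower in every severe library, at -0.38 ± 0.14, and Bmp4 (0.0017 ± 0.10), Bcl2 (0.07 ± 0.13) and Mycn (0.15 ± 0.23) had overlapping groups. Ccnd1, Bmp4, Bcl2 and Mycn were named after their values were seen. Several listed targets respond to other signals too, and Spp1 is also among the injured tubule markers, of which 5 of 12 were higher in every severe library. Hhat is among the 6 higher genes and is also counted among the ligand-processing genes above.

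**Figure D5:**
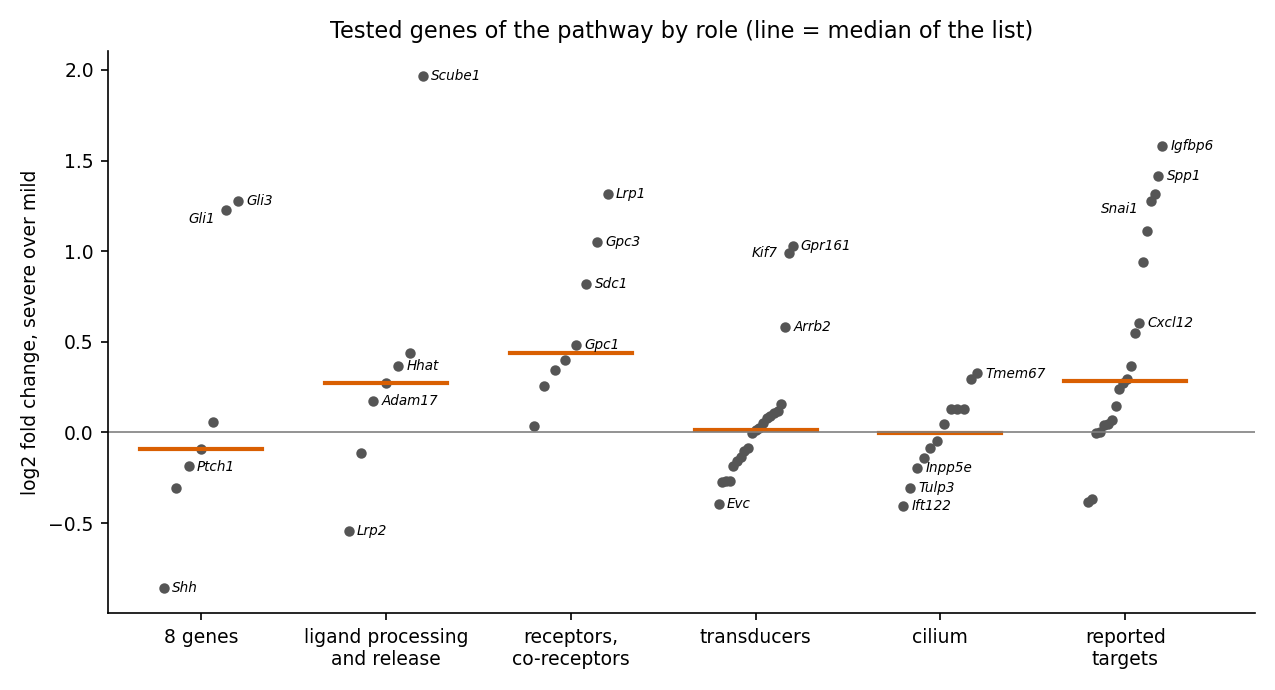
Log2 fold change of severe over mild for the tested genes of the 8 and of 5 further lists, ordered by role; each point is 1 gene and the line is the median of the list. Medians run from -0.09 for the 8 genes to 0.44 for receptors and co-receptors, with Scube1 highest at 1.96.

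The genes whose pattern over the 6 libraries was closest to that of Gli1, by the root mean square difference of log2(CPM + 0.5) after centring each gene, were Sspn (0.0736), F630028O10Rik (0.0804), Calml3 (0.0836) and Tnfsf13b (0.0867), out of 14806 genes. Sspn had 6.16, 13.1 and 8.67 CPM in severe libraries 13, 14 and 15, against 5.58, 3.41 and 4.26 CPM in mild libraries 7, 8 and 9, which is the same order of libraries as for Gli1. The closest to Ptch1 were Yars (0.0218), Akr1c13 (0.0228), Prmt3 (0.0236) and Wdr53 (0.0255). Yars had 41.6, 41.7 and 41.1 CPM in severe libraries and 49.4, 46.6 and 48.5 CPM in mild libraries. These likenesses are given as a description, with no test.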

How the data were processed

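The authors deposited 1 table of raw counts (whole numbers of reads for each Ensembl gene), with a total that differs between libraries. The submitters' processing notes list HTSeq 0.6.1, TopHat2 2.0.12, Bowtie2 2.2.3 and mm10, with no roles, and strand setting, counting mode and annotation version were not stated there. Per the labels' protocols, libraries were made from poly-A RNA with random-hexamer priming. Column names give the minutes of ischaemia, and their numbers match no sample title, so columns were used as unpaired replicates; 0 per-sample columns were left out.

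Genes were filtered with filterByExpr, scaled by TMM and tested with the robust quasi-likelihood F test of edgeR 4.0.16 (R 4.3.3). P-values were adjusted by Benjamini-Hochberg across every tested gene, with 0.05 as threshold. The SE was taken as log2 fold change over the square root of F. CPM per kilobase uses the gene length in the deposited table. Floors and Poisson intervals cover counting error only. Alternatives were other scalings and filters, DESeq2 1.42.0, limma-voom 3.58.1, non-robust dispersion and each library left out. The pipeline was tested on simulated counts. Named genes were the 8, the up to 4 genes of each pathway list and up to 3 of each marker list with the smallest p, and the 4 genes closest in pattern to Gli1 and to Ptch1; Dhh, Cdon, Boc, Gas1, Sufu, Pdgfra, Pdgfrb, Umod and the genes marked in the text were named outside that rule, with their values seen. The 8 genes, the lists and the ratios were chosen with earlier results of these data known. One item is not reported here and is in no list.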

Additional observations from a re-analysis of the deposited data

How the results depend on the processing

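No paired analysis was possible because the titles number the libraries from 1 to 6 across both groups and share no number. The count of genes past the threshold, 2 in the main test, was 1 with library totals as the scaling, 146 with no filter, 1171 with DESeq2 and 5041 with quality weights in limma-voom, and lay between 0 and 3269 with 1 library left out (3269 without severe library 13, 501 without severe library 14, 1 without severe library 15, and 0 without mild library 7, 8 or 9, where 2196, 2137 and 2345 genes had an unadjusted p under 0.05). The count of the 8 genes past the threshold, 0 in the main test, was 1 (Gli1) with quality weights and lay between 0 and 1 with 1 library left out. The count standing above every mild library in every severe library, 1 in the main test, was 2 (Gli1 and Gli3) with library totals, and lay between 1 and 3 with 1 library left out; Gli1 was among them in each. Values that changed sign were Gli2 (0.079 with library totals; -0.77 with quality weights; -0.26 to 0.19 with 1 library left out), Smo (-0.0020 to 0.092 with 1 library left out, the low end without severe library 15) and Wdr53 (0.010 with library totals). Of the 37 other genes recomputed, 31 passed in at least 1 alternative. They had been named for a small p, for likeness to Gli1 or Ptch1, or with their values seen, so this count is no result about the pathway. Of all tested genes, 33.9% passed with quality weights and 21.5% without severe library 13. Shh, which the filter of 1 CPM removed and for which DESeq2 gave no adjusted p, and Ihh, Gli3 and Ptch1 kept their sign and missed the threshold in each alternative that gave them a value. The cause of these changes was not tested. Depth was lowest for Shh, Gli2, Gli3 and Hhip; these had 32, 57, 123 and 6 counts over the severe libraries and 53, 54, 45 and 5 over the mild ones.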
